A study of Rattus norvegicus with 4 samples.

Results

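The sites described here are 342 bins of 1 kb on rat chromosomes 1 to 20 that were called enriched for p300 when its libraries from both stages were summed, and that were not called for Hdac3 in differentiating cells. They are 342 of 424 bins called for p300 (80.7%, exact binomial interval 76.6 to 84.3%) and of 2558150 bins in all. A bin was called where its tags reached 3 times the background with a Poisson upper tail below 1e-05. As background served whichever was highest among 3 means, taken over all bins, over the nearest 10 and over the nearest 50. A tag is an aligned read with a score of at least 80, moved 100 bp along its strand. The number depends on these limits: it was 33 with a tail below 1e-08, 81 at 5 times background and 6404 with the genome mean alone as background. Summed p300 and Hdac3 d3 counts therefore chose the bins, and their values there are descriptions. The Hdac3 library from precursors and the division of p300 tags between stages took no part in the choice. The place of a bin in the genome entered through the local means of the background.

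p300 is a histone acetyltransferase that does not read DNA itself. Transcription factors bring it to enhancers and promoters, where it acetylates histone tails, and its presence is widely used to mark active enhancers. Hdac3 is a histone deacetylase that works within the NCoR and SMRT corepressor complexes and removes such acetyl groups. Both are known to take part in the control of oligodendrocyte differentiation, in which precursor cells (OPCs) leave the cell cycle and turn on myelin genes.

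The series holds 4 chromatin immunoprecipitation sequencing libraries from primary OPCs of Sprague Dawley rats, isolated from cortex at postnatal day 2. Hdac3 and p300 were each precipitated from OPCs and from differentiating oligodendrocytes labelled d3, giving 1 library per group. Growth medium contained PDGF-AA (10 ng/ml) and bFGF (20 ng/ml) as mitogens, and differentiation medium contained thyroid hormone T3 (15 nM) with ciliary neurotrophic factor (10 ng/ml). No genotype or transgene is named in the labels, and the number of pups or cultures behind a library is not stated there. No input library was used here, and since no expression was measured, the cell identity could not be checked against markers. With 1 library per group no difference could be set against replicates. All 95% intervals below cover counting error only, were not adjusted for their number, and no p-value is given. Positions are in build rn4. No annotation or genome of that build was used here, so the bins carry no gene names and no sequence is printed.

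Kept tags on chromosomes 1 to 20 numbered 2607428 for p300 in OPCs, 3564091 for p300 at d3, 3025849 for Hdac3 in OPCs and 6421863 for Hdac3 at d3. Summed p300 (6171519 tags, 2.41 per bin) and Hdac3 at d3 (2.51 per bin) thus had almost equal depth when they were called. Over all bins the call was passed by 0.0166% in summed p300, 0.0326% in Hdac3 d3, 0.00477% in p300 OPC, 0.00704% in p300 d3 and 0.0041% in Hdac3 OPC.

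The p300 bins were small, isolated and only moderately enriched. Of the 341 separate regions they formed, 1 was longer than a single bin. A bin held a median of 16 p300 tags over both stages, in a range of 12 to 85, which was 4.35 times its background (3 to 8.67). In OPCs the median was 7 tags (0 to 24) and at d3 it was 9 (3 to 61), against a median of 1 tag per bin over the whole genome in each library. The bins together held 0.0956% of p300 tags in OPCs and 0.0978% at d3, beside 0.0379% and 0.0429% of Hdac3 tags. Nearest to the limit on the inner side were chr17:15305001-15306000, with 16 tags and a tail of 9.95e-06, chr5:146618001-146619000 with 13 tags and 9.86e-06, and chr7:114975001-114976000 with 15 tags and 9.24e-06. Nearest on the outer side were chr1:86052001-86053000, with 13 tags and 1.06e-05, and chr7:90637001-90638000 and chr15:88090001-88091000, each with 15 tags and 1.11e-05. A difference of a single tag therefore decided the membership of such bins.

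The highest p300 fold belonged to chr18:24374001-24375000, which held 24 tags in p300 OPC, 61 in p300 d3, 8 in Hdac3 OPC and 13 in Hdac3 d3. Scaled to the kept tags of each library (RPM, tags per 1e6), p300 there was 9.20 in OPCs and 17.1 at d3, and Hdac3 was 2.64 and 2.02. Only 27.7% of the reads of any score in that bin reached a score of 80, so most of its reads fell under the minimum. The second bin, chr2:156716001-156717000, had 11 and 8 p300 tags in OPCs and at d3 and 6 and 7 Hdac3 tags, and 4.402% of its reads reached 80. In contrast, chr11:31720001-31721000, the third by fold (7.03), held 11 and 15 p300 tags but 1 and 6 Hdac3 tags, and 94.3% of its reads reached 80. At chr18:82716001-82717000 there were 10 and 8 p300 tags with 4 and 11 Hdac3 tags, so that the Hdac3 d3 count was 3 tags short of a call. Of the 14 bins of highest fold, 6 shared the lowest value of 6.22, each with 15 p300 tags. The 4 bins between those described above and these 6, and the first 2 of the 6 in genome order, were chr1:163689001-163690000 (6.63 times background), chr3:63591001-63592000 (6.63), chr2:145713001-145714000 (6.36), chr15:53708001-53709000 (6.30), chr4:115863001-115864000 (6.22) and chr6:66321001-66322000 (6.22).

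Because some of the strongest bins held many reads of low score, the bins were divided by the share of reads of any score that reached 80. The share was at least 80% in 286 of the 342 bins (83.6%), which are called well placed below. It was under 50% in 18 bins and under 20% in 4. The median share was 89.5%, against 78.6% over all bins with reads. Of the 82 p300 bins that were also called for Hdac3 d3, 29 were well placed (35.4%), and their median share was 62.7%. Removing the shared calls thus left a set with a higher share of well-placed bins.

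Around the centre of the p300 tags the signal was narrow at both stages. Within 100 bp of the centre p300 tags were 7.87 times the mean of the surrounding 50 kb in OPCs (7.33 to 8.44) and 7.66 times at d3 (7.21 to 8.13). Between 1000 and 2000 bp away the values had fallen to 1.14 (1.07 to 1.20) and 1.16 (1.11 to 1.22). Since the bins were chosen and centred on p300 tags, the height of this summit is set by the choice. Hdac3 in OPCs, which neither chose nor centred the bins, was 3.03 times its surroundings within 100 bp (2.71 to 3.38), 1.46 times between 500 and 1000 bp (1.36 to 1.57) and 1.23 times between 1000 and 2000 bp (1.16 to 1.30). In the well-placed bins the Hdac3 OPC summit was lower, at 1.98 times within 100 bp (1.69 to 2.30), and 1.15 times between 1000 and 2000 bp (1.08 to 1.23). The Hdac3 tags of OPCs were therefore densest close to the p300 centre and fell off with distance from it.

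**Figure D1:**
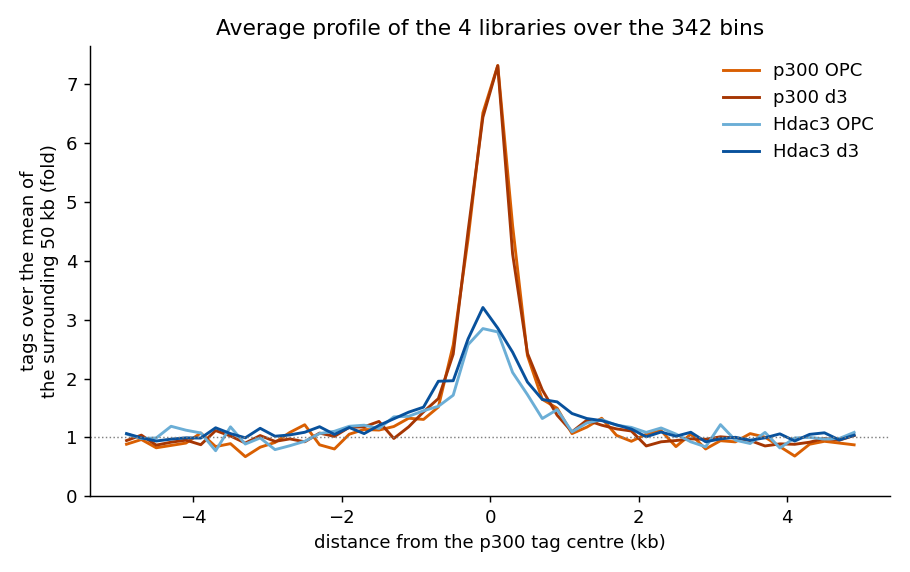
Average tag density in steps of 200 bp over the 342 bins (vertical axis, fold over the mean of the surrounding 50 kb) against distance from the p300 tag centre in kb, with 1 line per library. The p300 lines of both stages lie over each other and rise above 7 at the centre by choice of the bins, and both Hdac3 lines form a lower rise at the same place and return to about 1 within a few kb.

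Reads at a precipitated site are expected to start to its left on the plus strand and to its right on the minus strand. In the 342 bins the mean 5′ end of minus-strand p300 reads lay a median of 118 bp to the right of that of plus-strand reads (93.6 to 145, exact interval of the median over bins), and to the right in 273 bins. Moving the tags before the call itself favours such an offset. In bins called without moving the tags the median was 56.9 bp (35.7 to 74.3). The offset of p300 reads was 138 bp (108 to 162) in the well-placed bins and 49.97 bp (29.4 to 113) in the 56 others, where the same call had been used. For Hdac3 reads in OPCs it was 54.0 bp with an interval of -16.3 to 120 that included 0, and it was above 0 in 132 of the 241 bins with reads on both strands.

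Hdac3 was not absent from these bins. In OPCs the 342 bins held 1148 Hdac3 tags, 2.17 times the mean of the surrounding 50 kb (2.04 to 2.30). This fold moved with the limits of the call, to 3.63 with a tail below 1e-08, 3.78 at 5 times background and 1.41 with the genome mean alone. Over all bins in which at least 80% of the reads of the other 3 libraries reached 80 (and which held at least 5 such reads) the value was 1.20. In the well-placed bins it was 1.91 (1.78 to 2.04), which is 1.59 times that reference (1.48 to 1.70). The well-placed bins were judged on the reads of all libraries, and the reference on those of the other 3. The median bin held 3 Hdac3 OPC tags, in a range of 0 to 28, and 26 bins held none. At least 2 times the surrounding mean was reached by 161 bins (47.1%), against 16.2% of all bins, and at least 3 times by 81 bins (23.7%), against 5.84%. In the well-placed bins these shares were 44.8% and 19.6%, against 21.3% and 7.25% in the reference of value 1.20. On the other hand, 83 of the 342 bins lay under their surrounding mean. The Hdac3 OPC library passed the call in 6 bins (background 0.0041%), and none of the 6 was well placed.

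The rule had removed every bin called for Hdac3 at d3, yet Hdac3 d3 tags remained at most bins. Over the 342 bins Hdac3 at d3 was 2.47 times its surroundings (2.38 to 2.57), with a median of 7 tags (0 to 49), and 206 bins were at 2 times or more (60.2%, background 11.9%, a library that the rule used). In the well-placed bins the share was 58.7%, against 15.7% of all bins well placed by the reads of the other libraries. For comparison, the 82 shared bins were 11.8 times enriched for Hdac3 in OPCs (11.2 to 12.4), 5.45 times the value at the p300 bins outside Hdac3 calls (5.05 to 5.89). Among well-placed bins alone the ratio of these values was 4.16 (3.66 to 4.72). The 753 bins called for Hdac3 d3 and not for p300 gave a different result. There the Hdac3 OPC library was 2.21 times enriched (2.12 to 2.30), and the ratio of the p300 bins to these Hdac3 bins was 0.982 (0.914 to 1.05). Between the well-placed bins of both sets, at 1.91 and 1.93, the ratio was 0.990 (0.910 to 1.08). Hdac3 OPC enrichment thus differed between the 342 p300 bins and the 753 Hdac3 bins by no more than counting error. The intervals allow up to 1.08 times in favour of the p300 bins and 0.910 times against them. Both sets leave out the 82 shared bins, where this library was highest, and the 753 were chosen on Hdac3 at d3. The comparison therefore holds only with the shared bins removed. In the same way, p300 at those 753 Hdac3 bins was 2.44 times enriched in OPCs (2.35 to 2.54) and 2.45 times at d3 (2.37 to 2.53), with a ceiling set by the absence of a p300 call. What part sites that collect reads in any library have in these values was not tested, since no input library was used here.

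**Figure D2:**
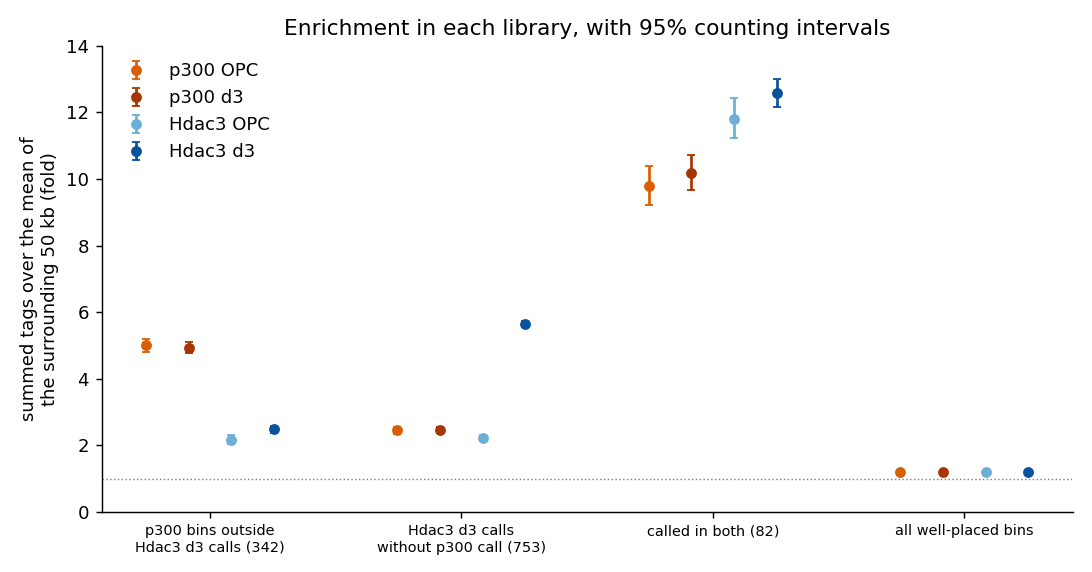
Summed tags over the summed mean of the surrounding 50 kb (vertical axis, fold) in the 4 libraries, where points are folds and bars their 95% Poisson intervals. Shown are 3 sets of called bins and all bins that are well placed by the reads of the other 3 libraries. The Hdac3 OPC point lies at 2.17 for the p300 bins outside Hdac3 d3 calls and at 2.21 for the Hdac3 d3 bins without a p300 call, while the bins called in both reach 11.8 and the well-placed reference is at 1.20.

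How far each bin lay from an Hdac3 d3 call was examined next. Against the background of the call, Hdac3 at d3 was under 1 times in 43 bins (12.6%), 1 to 2 times in 143, 2 to 3 times in 91 and 3 times or more in 65 (19.0%). These 65 had the fold for a call but too few tags for its Poisson limit. In 28 bins 1 or 2 more Hdac3 d3 tags would have given a call, and in 86 bins (25.1%) 5 or fewer. The absence of an Hdac3 call thus describes a threshold, and 43 of the 342 bins lay under the Hdac3 d3 background. Dropping all 65 bins at 3 times or more left 277, with Hdac3 OPC at 1.98 times its surroundings (1.85 to 2.12).

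**Figure D3:**
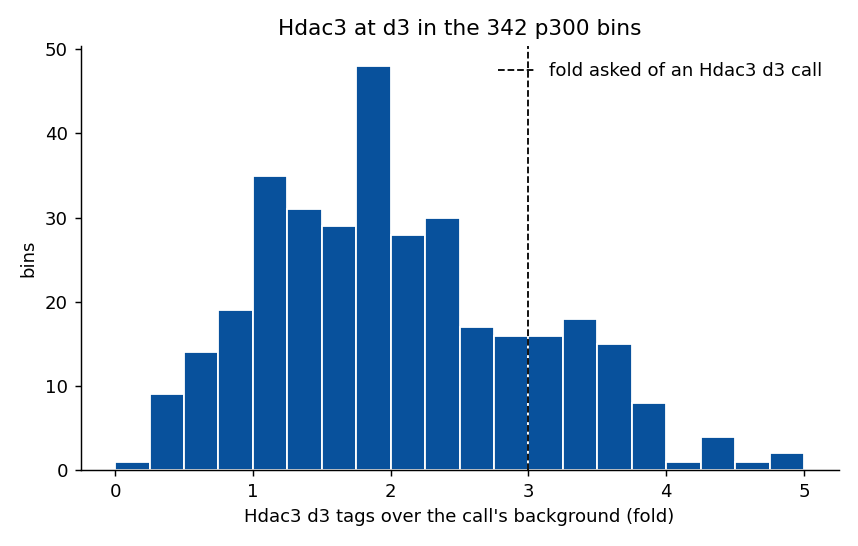
Number of bins (vertical axis) by Hdac3 d3 tags over the background of the call (horizontal axis, fold, in steps of 0.25), with the fold asked of a call as a dashed line. The 342 bins spread from 0 to 4.78 with a median of 1.92, and 65 of them lie at or beyond the line without passing the Poisson limit.

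By fold over the Hdac3 d3 background, the lowest bins were chr7:136369001-136370000, which held no Hdac3 d3 tag and 2 in OPCs beside 2 and 10 p300 tags in OPCs and at d3, and 4 of the 6 bins with a single Hdac3 d3 tag. A count of 0 allows up to 3 tags. Of the 4, chr5:137547001-137548000 held 8 p300 tags at each stage and 1 Hdac3 tag at each stage. chr1:240994001-240995000 held 5 and 7 p300 tags in OPCs and at d3 with 3 and 1 Hdac3 tags, and all of its reads reached a score of 80. chr1:13126001-13127000 held 4 and 11 p300 tags with 1 Hdac3 tag at each stage, and chr5:168951001-168952000 held 3 and 12 with 0 and 1. In all 5 the p300 total was 12 to 16 tags.

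At the other end, chr9:8241001-8242000 and chr16:38640001-38641000 each had 12 Hdac3 d3 tags, 4.78 times background and 1 tag short of a call. The first had 7 p300 tags at each stage and 7 Hdac3 tags in OPCs. The second had 4 and 8 p300 tags and 10 Hdac3 OPC tags, passed the Hdac3 call in OPCs, and had 44.7% of its reads at 80 or above. They were followed by chr20:42535001-42536000 (4.62 times), chr5:32650001-32651000 and chr9:105251001-105252000, which were 2 of 3 bins at 4.38. By Poisson tail the nearest to a call were chr1:145515001-145516000 with 49 Hdac3 d3 tags, chr17:17505001-17506000 with 29 and chr16:27441001-27442000 with 36. All 3 missed the fold of 3, and an Hdac3 d3 call lay 1 kb away from the first and from the second and 9 kb away from the third. The highest Hdac3 OPC fold was 28.6, at chr9:105251001-105252000, from only 4 tags in a surrounding with almost none. Next were chr16:38640001-38641000 (20.8), chr1:211838001-211839000 (10.0), chr2:156716001-156717000 (9.09) and chr1:163689001-163690000 (8.82), which held 3 to 10 Hdac3 OPC tags each.

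Hdac3 in OPCs was also described by groups of bins formed on Hdac3 at d3. It was 1.53 times its surroundings in the 43 bins under background (1.24 to 1.86), 1.81 in the next 143 (1.63 to 1.99), 2.45 in the next 91 (2.20 to 2.71) and 3.04 in the 65 at 3 times or more (2.69 to 3.41). In the well-placed bins of these groups the values were 1.73, 1.77, 1.79 and 2.55, so that there only the last group stood apart, with an interval of 2.20 to 2.94. The Hdac3 OPC fold was also 1.91 (1.72 to 2.11) in the 104 bins with summed p300 at 3 to 4 times background and 2.96 (2.61 to 3.35) in the 74 at 5 times or more. For the well-placed bins of these groups it was 1.59 (1.396 to 1.80) and 2.43 (2.08 to 2.82). The tags themselves were not more abundant there, with 3.70 Hdac3 OPC tags per bin in the first group and 3.42 in the second, and 2.96 and 2.74 in their well-placed bins. What differed was the surrounding mean, 1.94 and 1.16 Hdac3 OPC tags per bin. By contrast, tags per bin did differ across the groups formed on Hdac3 d3, with 2.30, 2.83, 4.01 and 4.29. In the well-placed bins of these groups they were 2.50, 2.70, 2.75 and 3.56, where the first 3 values lay close together.

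Whether p300 enrichment at such sites was seen in a library that had not chosen them was asked by calling each stage alone. Of the 342 bins, 41 passed the call in OPCs and not at d3, 67 at d3 and not in OPCs, 7 at each stage and 227 (66.4%) at neither, so that most bins were called only because the stages were summed. The backgrounds are the 0.00477% and 0.00704% given above, for libraries the rule used. The 7 bins included chr11:31720001-31721000, chr18:24374001-24375000 and chr17:17505001-17506000 above, the last with 25 and 29 Hdac3 tags in OPCs and at d3. The others were named after their values were seen. chr7:141163001-141164000 held 16 and 15 p300 tags in OPCs and at d3 and 5 and 3 Hdac3 tags. chr19:16006001-16007000 held 10 and 13 p300 tags and 2 and 16 Hdac3 tags. chr1:185710001-185711000 held 15 and 19 p300 tags and 13 and 12 Hdac3 tags. chr4:75892001-75893000 held 15 and 18 tags of each. Over the 7 bins Hdac3 in OPCs was 4.17 times its surroundings (3.25 to 5.28), and 42.9% of them were well placed. In their well-placed bins it was 1.70 times (0.735 to 3.35).

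The p300 OPC library alone called 85 bins outside Hdac3 d3 calls, of which 48 were among the 342. In the 85 bins p300 was 7.80 times its surroundings in OPCs, by choice, and 3.26 times at d3 (3.005 to 3.53), the library that took no part. The latter value was 6.79 with a tail below 1e-08 and 1.87 with the genome mean alone as background. The p300 d3 library alone called 132 such bins, of which 74 were among the 342. In the 132 bins p300 was 6.30 times enriched at d3, by choice, and 2.50 times in OPCs (2.29 to 2.73), or 4.27 and 1.65 with those changes. These values do not cover the 227 bins called at neither stage. For the well-placed bins, 68 and 110 in number, the values in the other stage were 2.69 (2.43 to 2.97) and 2.22 (2.00 to 2.47). Both were above the 1.20 that each p300 library had over all bins well placed by the other libraries. Hdac3 in OPCs had no part in the p300 calls, but leaving out Hdac3 d3 calls removed the bins where it was highest. It was 2.70 times enriched (2.43 to 2.99) at the 85 bins and 1.82 times (1.65 to 2.01) at the 132. The ratio of p300 in the stage left out to Hdac3 in OPCs was 1.21 (1.06 to 1.38) for the OPC calls and 1.37 (1.20 to 1.57) for the d3 calls, and in the well-placed bins it was 1.34 (1.13 to 1.59) and 1.53 (1.30 to 1.81). With the Hdac3 d3 calls kept, 37 of 122 bins for OPCs and 48 of 180 for d3, the direction turned. The ratio was then 0.838 (0.779 to 0.901) for the OPC calls and 0.837 (0.777 to 0.901) for the d3 calls. In the 81 and 124 well-placed bins of those it was 0.959 (0.851 to 1.08) and 1.002 (0.885 to 1.14). The excess of p300 over Hdac3 therefore holds only for the bins from which Hdac3 d3 calls were removed. Over the 342 bins the ratio of p300 to Hdac3, which the choice of bins raises, was 2.52 in OPCs (2.35 to 2.70) and 2.28 at d3 (2.17 to 2.40) in depth-scaled tags.

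**Figure D4:**
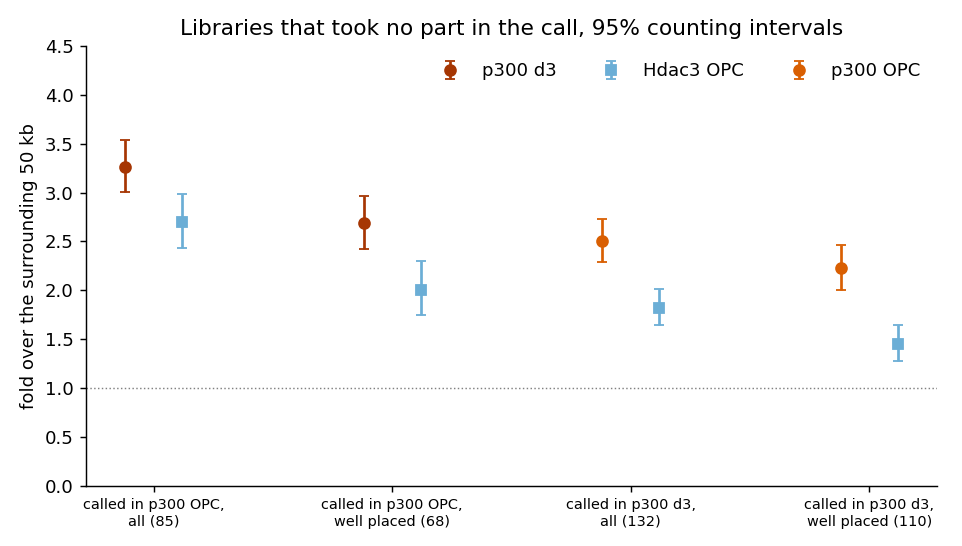
Fold over the surrounding 50 kb (vertical axis) in libraries that took no part in calling the bins, for bins called in p300 OPC or in p300 d3 alone and outside Hdac3 d3 calls, all or well placed, with their numbers in parentheses. Circles are p300 of the other stage, squares are Hdac3 in OPCs and bars are 95% Poisson intervals. p300 lies above Hdac3 in each of the 4 groups, all of which leave out the bins called for Hdac3 d3. Some of the bins shown are not among the 342.

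The total of p300 at these bins differed between the stages by less than counting error. The 342 bins held 2492 p300 tags in OPCs and 3487 at d3, or 2.79 and 2.86 RPM per bin, and the ratio of d3 to OPC was 1.02 (0.972 to 1.08). The ratio was 0.985 (0.930 to 1.04) in the well-placed bins and 1.03 (0.955 to 1.12) in the 82 shared bins. Over all 7108 bins of the genome with at least 12 summed p300 tags it was 1.09 (1.07 to 1.10). For a single bin with few tags the intervals were far wider, as the values below show. Thinning p300 d3 to the depth of OPCs before the call turned the ratio below 1, to 0.896 (0.844 to 0.9505), a setting in which part of the d3 tags that enter the ratio took no part in choosing the bins.

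Single bins spread widely around this average. The d3 to OPC ratio was at least 2 in 56 bins (16.4%), against 20.4% of the 7108 bins of the genome with at least 12 summed p300 tags, the smallest total among the 342. It was at most 0.5 in 35 bins (10.2%), against 8.44%. The interval of the ratio lay above 1 in 15 bins (4.39%, background 2.84%) and below 1 in 5 (1.46%, background 1.52%). These shares are near those of the genome and are no result about these bins. The median ratio was 0.975, against 1.02 over the 7108 bins.

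**Figure D5:**
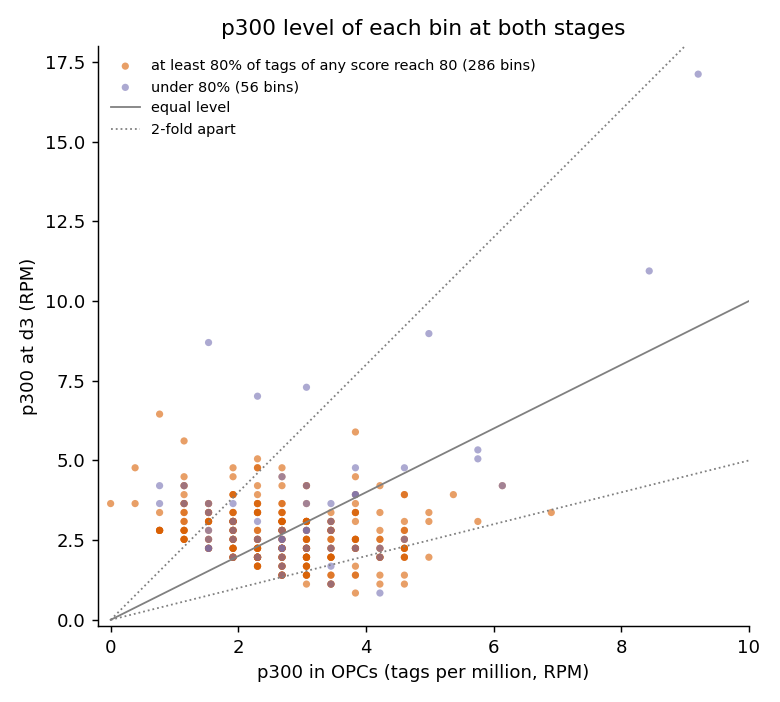
p300 in OPCs (horizontal axis, RPM) against p300 at d3 (vertical axis, RPM) for each of the 342 bins, where colour separates bins with at least 80% of reads of any score at 80 or above from the others, the solid line marks equal levels and the dotted lines a 2-fold difference. Counts are whole numbers, so many points lie over each other. Most bins lie between the dotted lines, and the bin at the upper right is chr18 with 9.20 and 17.1 RPM.

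The largest increases were ranked among the 71 bins with at least 20 summed p300 tags, in 6 of which the interval lay above 1. chr10:76258001-76259000 held 2 p300 tags in OPCs and 23 at d3, or 0.767 and 6.45 RPM (ratio 8.41, 2.08 to 73.6), with 1 and 8 Hdac3 tags. Of its reads 91.9% reached 80, and its p300 count was 3.05 times a high local background. chr1:262032001-262033000 held 4 and 31 p300 tags (ratio 5.67, 2.00 to 22.1) and 0 and 4 Hdac3 tags, with 49.4% of reads at 80 or above. chr13:88358001-88359000 held 3 and 20 p300 tags (4.88, 1.45 to 25.6) and 6 Hdac3 tags at each stage, with 89.7% of reads at 80. In these 3 bins p300 was higher at d3. From few tags, Hdac3 went from 0.330 to 1.25 RPM in the first, from 0 to 0.623 in the second and from 1.98 to 0.934 in the third. Their Hdac3 d3 counts were 8 to 12 tags short of a call, but the rule leaves every bin short, by a median of 8 tags. The next bin, chr3:8834001-8835000 (3.05, 1.22 to 9.09), forms with chr3:8833001-8834000 (2.38, 1.05 to 6.08) the region longer than a single bin. Its parts held 8 and 6 tags in p300 OPC and 26 and 25 in p300 d3, but only 24.0% and 19.2% of their reads reached 80. For chr4:55713001-55714000, with 5 and 17 tags, the interval of 0.881 to 8.62 included 1.

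In 0 of these 71 bins did the interval lie below 1. The lowest ratio was 0.394 (0.133 to 1.06) at chr6:135521001-135522000, with 13 p300 tags in OPCs and 7 at d3. The next value, a ratio of 0.488, was shared by 5 bins. Of these chr8:10489001-10490000 held 18 and 12 p300 tags (0.214 to 1.07), and the other 4 held 12 and 8 (0.173 to 1.30). The 4 were chr3:6455001-6456000, chr5:9229001-9230000, chr6:3125001-3126000 and chr7:119082001-119083000, with 11 to 17 Hdac3 tags at d3.

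The division of p300 between stages differed with the Hdac3 level at d3. In the 43 bins under the Hdac3 d3 background the p300 ratio of d3 to OPC was 1.36 (1.16 to 1.59). It was 1.06 (0.979 to 1.15) in the 143 bins at 1 to 2 times, 0.935 (0.848 to 1.03) in the 91 at 2 to 3 times and 0.912 (0.809 to 1.03) in the 65 at 3 times or more. In the well-placed bins of the same groups, 34, 129, 69 and 54 in number, the ratios were 1.28 (1.07 to 1.53), 1.02 (0.937 to 1.12), 0.854 (0.761 to 0.958) and 0.940 (0.823 to 1.07). Scaled to the kept tags of each library, p300 was thus higher at d3 than in OPCs where the Hdac3 d3 fold was lowest. Over the surrounding 50 kb, p300 in these 43 bins was 4.24 times in OPCs and 5.20 times at d3. In the 34 well-placed ones it was 4.39 and 5.19 times. A ratio scaled to the surroundings, with its interval, was not computed for these groups. The groups were formed after the data had been seen, and each rests on the same 2 p300 libraries. Hdac3 itself had a d3 to OPC ratio of 1.13 (1.05 to 1.21) over the 342 bins, with its d3 tags held down by the rule. This value joins opposite directions. The Hdac3 ratio was 1.25 (1.15 to 1.35) in the well-placed bins and 0.846 (0.739 to 0.970) in the others.

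The bins lay on each of the 20 chromosomes, at 0.134 per Mb (0.120 to 0.149). Density was highest on chromosome 10, with 28 bins or 0.253 per Mb (0.168 to 0.366). It was lowest on chromosome 9, with 7 bins or 0.0617 per Mb (0.0248 to 0.127), and on chromosome 13, also with 7 (0.0630, 0.0253 to 0.130). Chromosome 10 also had the most p300 tags, 3.01 per bin against 2.41 over all chromosomes. Relative to its p300 tags (per 1e6) it held 84.2 bins (55.9 to 122), against 55.4 (49.7 to 61.6) in all, and on that scale chromosomes 9, 13 and 8 were lowest, with 25.04 (10.1 to 51.6), 27.7 (11.2 to 57.2) and 28.3 (13.6 to 52.0). All 4 intervals overlapped that of the whole.

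Few of the bins were close to another. Of the 342, 15 had another within 50 kb (4.39%), while 1.32% of all bins lay that close to one. An Hdac3 d3 call lay within 1 kb of 8 bins (2.34%, against 0.0969% of all bins), within 10 kb of 14 (4.09%, against 0.669%) and within 50 kb of 29 (8.48%, against 3.14%). Dropping the 8 neighbours left 334 bins and an Hdac3 OPC fold of 2.05 (1.92 to 2.18).

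The wider surroundings were rich in p300, though not only around these bins. In the 500 kb around a bin, leaving out the nearest 50 kb that entered the rule, summed p300 had a median of 1.30 times the genome mean, against 0.999 over all bins, and 83 bins (24.3%) lay in the top 10% of the genome. The values were alike for p300 in OPCs (1.29) and at d3 (1.31). The background of the rule follows local p300 density, and what part this has in these values was not tested. Hdac3 in the same surroundings was at 1.21, against 1.06 over all bins, with 66 bins (19.3%) in the top 10%. The ratio of p300 to Hdac3 in the surroundings was 1.11, against 0.942, with 89 bins (26.0%) in the top 10%. At the 82 shared bins that ratio was 0.980, and at the 753 Hdac3 d3 bins without a p300 call it was 1.01. Summed p300 around these sets was 1.04 and 1.19 times the genome mean, and Hdac3 was 1.08 and 1.18 times. The 114 bins with the richest surroundings held a median of 19 summed p300 tags and had an Hdac3 OPC fold of 1.78 (1.601 to 1.97), against 14 tags and 2.71 (2.45 to 2.99) in the 114 with the poorest. Among well-placed bins these folds were 1.78 (1.59 to 1.99) and 2.07 (1.81 to 2.36), with intervals that overlapped. Hdac3 OPC tags per bin were 3.21 in the richest and 3.58 in the poorest, but 3.14 and 2.55 among their well-placed bins, so that the order of the folds was not that of the tags there.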

How the data were processed

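The 4 libraries, 1 per group, were grouped by sample title. The deposited files list aligned reads with position, strand and score. The submitters' processing notes name build rn4 and MACS 1.4.0 but no role for MACS. For the aligner, nothing was given in the sources used here. Scores, as deposited by the authors, run from 8 to 100 on an undocumented scale, read here as mapping quality. At most 1 read per library shares a 5′ end and strand, which caps the tags of a narrow site.

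Tags with a score of at least 80 were binned (1 kb) and called as described in the report, with Python 3.11.15, numpy 2.4.6 and scipy 1.17.1. Fold was summed tags over the summed mean of the nearest 50 bins, with exact Poisson intervals. Ratios have exact conditional binomial intervals. The code for calls and folds was tested on Poisson counts simulated around the local means, and that for the ratio intervals on binomial draws. Such counts do not give the rate of false calls in these data. The members, lists and tests were chosen with earlier results of these data known. Regions were named by rank of p300 fold, of d3 to OPC ratio (at least 20 tags) and of Hdac3 fold, by nearness to the limits, and by grouping, with ties in genome order; exceptions are marked. The division by well-placed reads, the groups by level and the surroundings were added after the data were seen. Alternatives changed the score, shift, bins, limits, background, thinning, neighbours, scaling and chromosome X.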

Additional observations from a re-analysis of the deposited data

Results flagged for a closer look

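Reads left out by the minimum score of 80 gave a signal at the 342 bins. In the absence of control samples it was set against the 3 counts that a count of 0 allows. Sums over 342 bins exceed that limit by their size alone, so it decides nothing here. Hdac3 had 971 such reads in OPCs and 1521 at d3, or 3.56 and 3.0 times the mean of the surrounding 50 kb. p300 had 799 and 1278, or 4.21 and 4.97 times. The 5 bins with the most such reads held 42.2%, 37.5%, 42.9% and 44.8% of them in the same order. In the 286 well-placed bins the folds were 1.10 (0.931 to 1.28), 1.29 (1.16 to 1.43), 1.47 (1.25 to 1.72) and 1.42 (1.23 to 1.62).

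Chromosome X, which the rule leaves out, held 4 bins that passed it when the chromosome was added. This is 0.0249 per Mb (0.00678 to 0.0637), against 0.134 on chromosomes 1 to 20, where summed p300 tags were 2.41 per bin compared with 1.03 on X. The adjacent bins chrX:130171001-130172000 and chrX:130172001-130173000 held 8 and 10 tags in p300 OPC, 19 each in p300 d3, 7 and 15 in Hdac3 OPC and 15 and 23 in Hdac3 d3. The others were chrX:12615001-12616000, with 13 summed p300 tags, and chrX:81566001-81567000, with 12.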

How the results depend on the processing

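No paired analysis was possible because each group held 1 library. In 81 of 121 recomputed values the result stayed within 1.5 times (counts) or within its counting interval (other values), and the other 40 follow. With a Poisson limit of 1e-08 there were 33 bins in 32 regions, 5 with a p300 d3 to OPC ratio of at least 2 and 3 of at most 0.5. The Hdac3 OPC fold was then 3.63, p300 in the stage left out 6.79 (OPC calls) and 4.27 (d3 calls), and the strand offset 79.97 bp. With 5 times background there were 81 bins in 80 regions, 11 and 14 of them past these ratios, a summed ratio of 0.957, an Hdac3 OPC fold of 3.78 and 2.98 for p300 OPC at d3 calls. With the genome mean alone as background there were 6404 bins in 5932 regions, 1339 and 527 past these ratios, a summed ratio of 1.09 (1.08 to 1.11), an Hdac3 OPC fold of 1.41, p300 in the stage left out at 1.87 and 1.65, and an offset of 85.1 bp. Reads with a score of at least 50 gave 3.54 and 3.15 for p300 in the stage left out, bins of 500 bp gave 2.71 and 3.01 with an Hdac3 OPC fold of 2.32, and bins starting at 500 bp gave 2.79 for p300 OPC at d3 calls. Tags left unmoved gave an offset of 56.9 bp. Thinning p300 d3 gave a summed ratio of 0.896 and 23 bins at 2 or more. Folds over the largest of the 3 means were 1.77 for Hdac3 OPC and 2.55 and 2.02 for p300 in the stage left out. Alternatives added after seeing the data gave an Hdac3 OPC fold of 1.98 without bins at 3 times the Hdac3 d3 background and 1.91 in well-placed bins, and 5.996 and 4.74 for p300 in the stage left out with bins called for Hdac3 d3 kept. The enrichment of Hdac3 in OPCs stayed above 1 in each of the 15 alternatives run for it. Apart from the loss of bins under stricter limits, the cause of these shifts was not tested. Depth limits single bins, most of which hold under 20 p300 tags.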
